A study of Mus musculus with 2 samples.

Results

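The colony stimulating factors and their receptors were followed in single cells of amputated mouse digits. Members were the rows of both gene lists with the symbols *Csf1*, *Csf2*, *Csf3*, *Csf1r*, *Csf2ra*, *Csf2rb* and *Csf3r*, which gave 7 genes of the 33696 listed, 3 ligands and 4 receptor genes. Colony stimulating factors are secreted proteins named for the blood cell colonies they raise from bone marrow. CSF1 (M-CSF) acts through the receptor tyrosine kinase CSF1R and keeps macrophages and osteoclasts alive, CSF2 (GM-CSF) acts through an alpha chain (CSF2RA) paired with a common beta chain (CSF2RB), and CSF3 (G-CSF) acts through CSF3R and drives the production and release of neutrophils. Stromal cells are known sources of these ligands at sites of injury, and IL-1, TNF and IL-17 are known inducers of them.

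The middle phalanx (P2) of hindlimb digits 2 and 4 was amputated in ICR mice, an outbred stock, at postnatal day 3, and a bead was implanted at postnatal day 7, after the wound had closed. The FGF8 group received a bead soaked in FGF8 (500 ng/μl), a growth factor, and the BSA group a bead with 0.1% bovine serum albumin, so amputation and bead implantation were shared by both groups. Cells were collected after 24 h, at postnatal day 8, from 20 digits of 5 mice in each group, with male and female animals combined and the surrounding epithelium removed. All digits of a group were pooled before capture, so each group was 1 library, no p-value was computed, and the treatment cannot be told apart from the pool of animals or the capture.

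The FGF8 library held 7249 barcodes, of which 6715 passed the filters, and the BSA library held 3703, of which 3252 passed. Kept cells had a median of 12251 and 15377 UMIs (unique molecular identifiers, which count each captured transcript once), and 6 barcodes occurred in both libraries. Cells with an *Xist* UMI and no UMI of 4 Y-linked genes made up 24.6% of the sex-called FGF8 cells and 79.3% of the BSA ones, so the ratios of the members in the main cell types, and in finer clusters 0 and 14, were repeated in the cells of each sex. Levels are given as CPM, the UMIs of a gene per 1000000 UMIs of the cells summed, and groups are compared as the log2 ratio of CPM, FGF8 over BSA. Intervals are exact 95% intervals (Poisson for levels, binomial for shares, conditional for ratios) and cover counting error only, not the variation between animals. The 3′ chemistry counts transcript ends, and levels were compared between cell types for the same gene, not between genes.

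Cells fell into 9 clusters, of which 8 could be named from marker lists, and a name such as macrophage-like means no more than that. The fibroblast-like cluster held 3323 FGF8 and 1714 BSA cells, the macrophage-like cluster 886 and 467, and the neutrophil-like cluster 537 and 157. All 8 macrophage markers were found in at least 10% of the macrophage-like cells of both libraries. Only 4 of the 9 neutrophil markers reached that share in neutrophil-like cells, in both libraries, and the granule genes *Ngp* and *Camp* were at 0 in the BSA cells. The unnamed cluster 2 joined keratinocytes and endothelial cells, which separated at a finer resolution. It also held 202 FGF8 and 131 BSA cells of finer cluster 8, an unnamed cluster of few UMIs per cell (medians of 695.5 and 925). A further 56 of its FGF8 cells lay in the macrophage-like finer cluster 1.

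Promoter windows of 300 bases (250 before and 50 after the start of the gene) were found in the RefSeq table of GRCm38.p6 for 4 of the 7 members, *Csf1*, *Csf2*, *Csf2ra* and *Csf3r*. Those of *Csf1*, the ligand with most UMIs, and of the receptor genes *Csf3r* and *Csf2ra*, which held a motif, are shown 5′ to 3′ on the gene's strand, with motif matches in capitals. They lie at chr3:107760420-107760719 (minus strand), chr4:126024409-126024708 (plus strand) and chr19:61228369-61228668 (minus strand).
Csf1: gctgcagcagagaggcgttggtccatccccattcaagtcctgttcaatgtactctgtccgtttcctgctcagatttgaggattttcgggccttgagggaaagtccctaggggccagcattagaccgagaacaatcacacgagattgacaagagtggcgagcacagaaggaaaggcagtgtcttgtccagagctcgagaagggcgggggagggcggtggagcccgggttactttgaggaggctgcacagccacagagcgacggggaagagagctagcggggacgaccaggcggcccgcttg
Csf3r: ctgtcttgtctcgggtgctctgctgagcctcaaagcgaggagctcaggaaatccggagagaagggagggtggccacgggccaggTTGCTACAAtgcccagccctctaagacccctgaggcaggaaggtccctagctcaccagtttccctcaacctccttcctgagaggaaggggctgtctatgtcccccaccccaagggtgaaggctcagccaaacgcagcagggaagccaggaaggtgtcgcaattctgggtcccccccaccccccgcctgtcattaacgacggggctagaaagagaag
Csf2ra: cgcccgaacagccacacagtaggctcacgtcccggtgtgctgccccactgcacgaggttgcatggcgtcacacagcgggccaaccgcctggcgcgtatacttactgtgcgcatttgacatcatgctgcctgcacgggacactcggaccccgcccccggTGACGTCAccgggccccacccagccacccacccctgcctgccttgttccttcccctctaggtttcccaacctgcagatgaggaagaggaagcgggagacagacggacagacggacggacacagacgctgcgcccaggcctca

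Both strands of the windows were searched for AP-1 (TGACTCA), CRE (TGACGTCA), the CK-1 core (GAGNTTCCA), NF-kappaB (GGGNNTTCC), PU.1 (GAGGAAGT), C/EBP (TTGCNNCAA) and Ets (CCGGAAGT) letters. The *Csf3r* window held 1 C/EBP match, TTGCTACAA, starting at base -166 from the gene start, and 2.08% of the 32851 promoters in the table held one. The *Csf2ra* window held 1 CRE match at base -92, which 1.79% of the promoters held. The *Csf1* and *Csf2* windows held none of the 7 motifs, which says only that these letters are not in those bases. The other motifs were held by 5.202% (AP-1), 1.48% (CK-1 core), 5.82% (NF-kappaB), 3.20% (PU.1) and 3.89% (Ets) of all promoters.

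The members divided by cell type. *Csf1* was found in connective tissue cells, neutrophil-like cells and mast-like cells, *Csf3* mostly in a few connective tissue cells of the FGF8 library, and *Csf2* in very few cells of either library. *Csf1r* and *Csf2ra* were highest in macrophage-like and neutrophil-like cells, *Csf2rb* in mast-like cells, and *Csf3r* in neutrophil-like cells. Between the libraries, *Csf1* and *Csf3* were higher in FGF8 fibroblast-like cells, while *Csf1r* was slightly lower in FGF8 macrophage-like cells. *Csf2ra* in macrophage-like and *Csf3r* in neutrophil-like cells were also lower in the FGF8 library, but their intervals held 0 after thinning and within each sex.

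**Figure D1:**
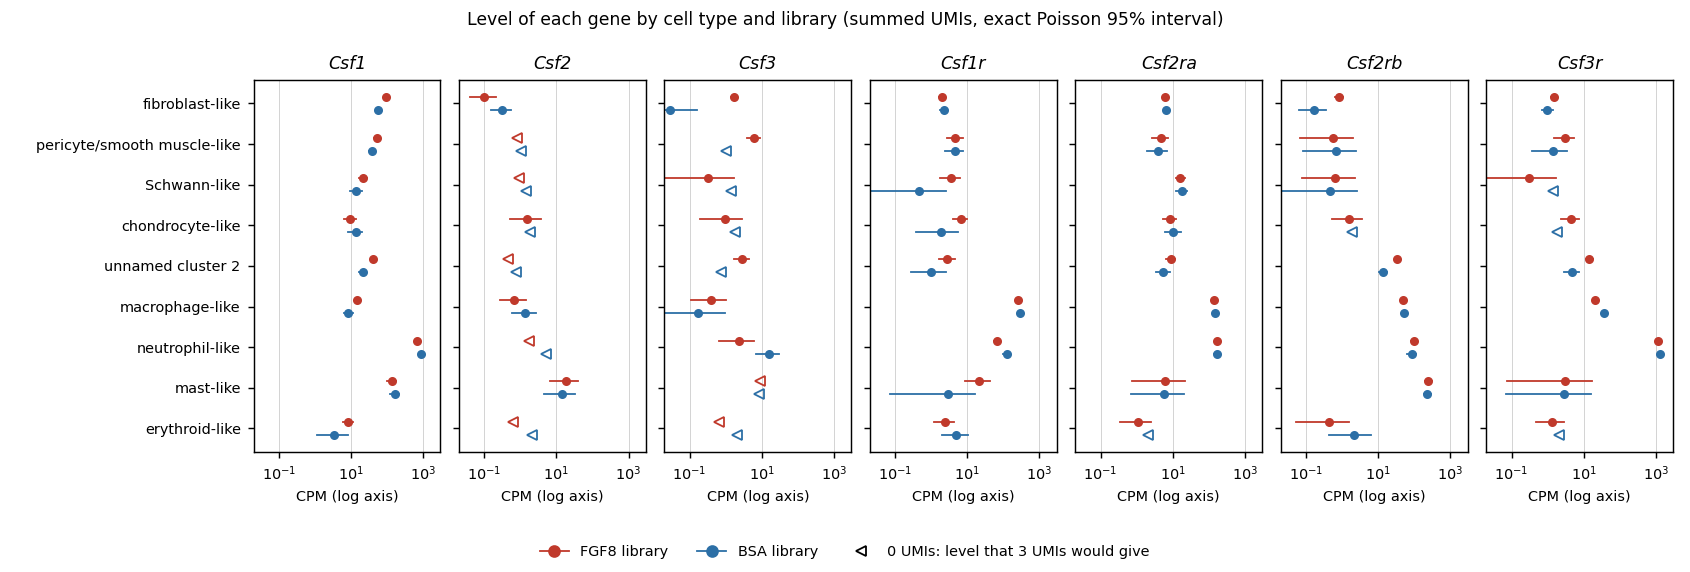
Level of each of the 7 genes in the 9 clusters. The horizontal log axes give CPM, points are the FGF8 (red) and BSA (blue) libraries, lines are Poisson 95% intervals (lines that reach the left edge go on beyond it), and open triangles mark 0 UMIs at the level 3 UMIs would give. *Csf1* has its highest levels in neutrophil-like cells (687 and 890 CPM), and *Csf3r* stands apart in the same cells (1130.4 and 1318 CPM).

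*Csf1* (ENSMUSG00000014599, GRCm39 chr3:107648364-107667806, minus strand) encodes M-CSF. In fibroblast-like cells the FGF8 library had 6369 UMIs in 1955 cells, against 1970 in 835 cells for BSA. These came to 91.1 CPM (interval 88.9–93.4) and 55.4 CPM (53.0–57.9), a log2 ratio of 0.72 (0.64–0.79), or 1.64-fold higher in the FGF8 library. The levels did not overlap within counting error, and the direction was the same in cells of either sex (0.79 in female-called, 0.59 in male-called). After thinning every cell to 2000 UMIs, 14.7% of FGF8 and 9.22% of BSA fibroblast-like cells kept a *Csf1* UMI, against 1.46% and 1.32% of erythroid-like cells. No single cell carried the result, since the cell with most *Csf1* UMIs held 0.565% of them in the FGF8 and 2.23% in the BSA library.

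Within the connective tissue, the difference was uneven across the finer clusters obtained at a resolution of 0.5. In finer cluster 0, led by the joint lubricant gene *Prg4*, *Il1rl1*, *Mmp3* and genes of dividing cells such as *Plk1*, *Birc5* and *Ccnb1*, *Csf1* was at 105 CPM in FGF8 cells against 46.9 CPM in BSA cells, a log2 ratio of 1.16 (1.02–1.31), with 1.12 for female-called and 1.05 for male-called cells. In finer cluster 5, led by *Agtr2*, *Lpl* and *Pi16*, it was at 98.8 and 92.9 CPM, with overlapping intervals (91.7–106 and 85.0–101). The high level in cluster 5 was thus present in both libraries, whereas in cluster 0 it was present in the FGF8 library. Finer cluster 2 (*Chodl*, *Sema3a*) had 69.8 and 45.9 CPM, and cluster 3 (*Fmod*, *Kcnma1*) and cluster 9 (*Coch*, *Nrg1*) had 54.1 and 49.7 CPM and 62.8 and 55.6 CPM, where the intervals overlapped. The small finer cluster 17 (*Corin*, *Alx4*) had 41.7 and 15.9 CPM from 44 and 12 UMIs, a log2 ratio of 1.39 (0.45–2.45). Finer cluster 6, of cells with few UMIs, had 144 and 86.3 CPM, a log2 ratio of 0.74 (0.31–1.19). A higher FGF8 level was thus not particular to cluster 0. Cluster 0 also made up more of the FGF8 library, 17.1% of its cells against 8.64% of the BSA cells, and held 48.8% and 14.7% of all *Csf1* UMIs. How much of the fibroblast-like difference goes with these shares was not tested.

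**Figure D2:**
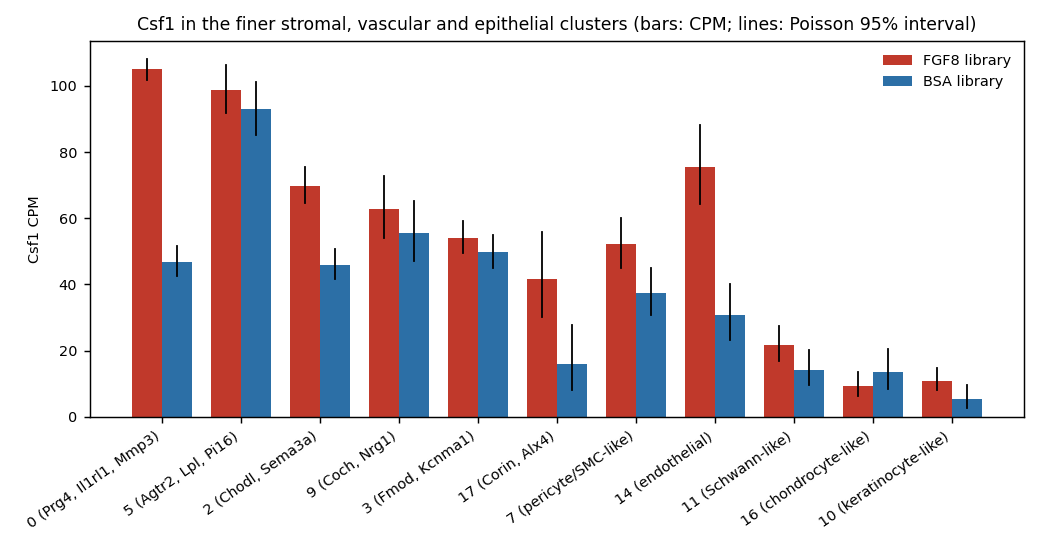
*Csf1* in the finer stromal, vascular and epithelial clusters. Bars give CPM from 0 in the FGF8 (red) and BSA (blue) libraries and lines give Poisson 95% intervals. The FGF8 bar stands well above the BSA bar in finer clusters 0 (105 and 46.9 CPM), 14 (75.6 and 30.8 CPM) and 17 (41.7 and 15.9 CPM). The bars are nearly level in cluster 5 (98.8 and 92.9 CPM).

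Outside the fibroblast-like cells, *Csf1* was at 52.2 CPM in the FGF8 and 37.6 CPM in the BSA pericyte or smooth muscle-like cells (log2 ratio 0.47, from 0.13 to 0.83). With the stricter cell filter the ratio was 0.15 (from -0.22 to 0.53), and with at most 6500 genes a cell it was 0.28 (from -0.08 to 0.64). The intervals also held 0 within each sex, so this difference was not clear of counting error in those settings.

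The endothelial cells of finer cluster 14 had 163 *Csf1* UMIs in 54 FGF8 cells and 55 in 22 BSA cells, or 75.6 and 30.8 CPM, a log2 ratio of 1.30 (0.85–1.77). The make-up of the cluster differed between the libraries. Its 6 blood endothelial markers summed to 3580 CPM in FGF8 and 2774 CPM in BSA cells, its 5 lymphatic endothelial markers to 1532 and 4100 CPM, and its 9 neutrophil markers to 160 and 39.7 CPM. Without cells that had a lymphatic marker UMI the ratio was 1.46 (0.77–2.20), and without cells that had a neutrophil marker UMI it was 0.78 (0.31–1.28). After thinning it was 1.08, with an interval from -0.10 to 2.38. By sex it was 1.24 (0.59–1.90) for female-called and 1.45 (0.41–2.70) for male-called cells, the latter with 14 BSA cells. In cluster 2 as a whole, which also holds the keratinocytes, the ratio of 0.95 became -0.39 in thinned cells and -0.20 in male-called cells.

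Macrophage-like cells, which receive the signal, had 14.9 and 8.48 CPM (log2 ratio 0.81, from 0.34 to 1.31). After thinning the ratio was 0.69 (from -0.50 to 2.04). It was 0.28 in female-called (from -0.64 to 1.15) and 0.97 in male-called cells (from -0.07 to 2.22). These intervals held 0, so the difference was not clear of counting error there. The 7 fibroblast markers in these cells summed to 1140 CPM in the FGF8 and 846 CPM in the BSA library. The part of these markers in the result was not tested.

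Neutrophil-like cells had the highest *Csf1* level of any cluster and went the other way. The FGF8 library held 1153 UMIs in 347 of 537 cells and the BSA library 523 in 102 of 157, or 687 CPM (648–728) and 890 CPM (815–969), a log2 ratio of -0.37 (from -0.52 to -0.22). The BSA level was above the FGF8 level with no overlap, and the ratio was -0.44 among female-called (from -0.90 to 0.01) and -0.45 among male-called cells (from -0.82 to -0.07). Over the 10822 genes with at least 10 UMIs in these cells the median log2 ratio was 0.22, the 7 fibroblast markers summed to 2832 CPM in the FGF8 and 825 CPM in the BSA cells, and the 6 erythroid markers to 8068 and 48234 CPM. The part of this other RNA in the result was not tested. After thinning the ratio was -0.22 (from -0.41 to -0.01), and without integration it was -0.18 (from -0.33 to -0.03). The share of thinned cells that kept a *Csf1* UMI was 61.3% in the FGF8 and 57.8% in the BSA library. By that share alone the BSA library was not the higher. Mast-like cells came next with 137 CPM (101–183) and 162 CPM (123–210), which overlapped.

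In the FGF8 library the order of *Csf1* was neutrophil-like, mast-like, fibroblast-like, pericyte or smooth muscle-like, cluster 2 (40.8 CPM), Schwann-like (21.6 CPM), macrophage-like, chondrocyte-like (9.40 CPM) and erythroid-like (8.43 CPM). The intervals of pericyte or smooth muscle-like cells and cluster 2 overlapped, as did those of Schwann-like and macrophage-like cells, of macrophage-like and chondrocyte-like cells, and of chondrocyte-like and erythroid-like cells. The finer clusters kept neutrophil-like cells first and placed finer cluster 6, which held cells of few UMIs (medians of 2549 and 3310.5), beside mast-like cells in the FGF8 library, at 144 CPM (126–165).

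*Csf3* (ENSMUSG00000038067, chr11:98592089-98594458, plus strand), which encodes G-CSF, was the member with the largest difference. The FGF8 library held 167 *Csf3* UMIs in 44 kept cells and the BSA library 11 UMIs in 5. In fibroblast-like cells 29 of 3323 FGF8 cells had 115 UMIs and 1 of 1714 BSA cells had 1, or 1.65 and 0.0281 CPM, a log2 ratio of 5.87 whose interval ran from 3.36 to 11.2. The ratio rests on 1 BSA UMI and its size is therefore poorly known. Among male-called cells there were 98 FGF8 UMIs and 1 BSA UMI, and among female-called cells 13 and 0, which gives a bound of at least 2.91 against a floor of 3 counts over the cells of the type.

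The *Csf3* signal was in few cells. Of the 29 fibroblast-like FGF8 cells, 16 had a single UMI, 8 had 5 or more, the cell with most had 30, and the 5 highest held 69 of the 115 UMIs. Finer cluster 0 held 101 of these UMIs in 19 cells. In the same library, pericyte or smooth muscle-like cells held 22 UMIs in 2 cells and endothelial cells of finer cluster 14 held 16 in 3 cells, where the BSA library held 0 in both, which allows levels of up to 1.04 and 1.68 CPM (3 counts). In neutrophil-like cells the BSA library was higher, with 9 UMIs in 3 cells against 4 UMIs in 4 cells, and 7 of the 9 lay in 1 cell.

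Fibroblast-like FGF8 cells with a *Csf3* UMI were set beside those without one, with genes chosen after the data had been seen. They were deeper (medians of 26046 and 18594.5 UMIs), and they had higher levels of the neutrophil chemoattractant genes *Cxcl5* (2993 against 495 CPM) and *Cxcl1* (1229 against 478 CPM). The IL-1 receptor *Il1r1* was at 339 against 127 CPM, and *Zc3h12a*, whose product degrades inflammatory transcripts, at 24.2 against 9.54 CPM. *Csf1* did not separate them, at 90.7 and 91.1 CPM. In the cells with *Csf3* the neutrophil genes *S100a8* and *S100a9* were at 8.47 CPM each, below the 13.4 and 17.1 CPM of the cells without it. Counted by cells they were not lower. UMIs of *S100a8* and *S100a9* were in 4 and 7 of the 29 cells, against 328 and 334 of the 3294 without *Csf3*. These are descriptions of 29 cells of 1 library.

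*Csf2* (ENSMUSG00000018916, chr11:54138097-54140493, minus strand), which encodes GM-CSF, was near the limit of detection. All kept cells together held 25 UMIs in 15 FGF8 cells and 24 UMIs in 12 BSA cells. Fibroblast-like cells had 7 UMIs in 5 cells and 11 in 4 cells, a log2 ratio of -1.63 (from -3.23 to -0.13), with 7 of the 11 BSA UMIs in 1 cell. Without the cell with most *Csf2* UMIs in each library the ratio was -0.65, and its interval held 0 (from -2.87 to 1.68). The FGF8 library also had 5 UMIs in 1 chondrocyte-like cell. Mast-like cells had the highest level, 17.9 CPM (6.58–39.0) from 6 UMIs and 14.2 CPM (4.63–33.2) from 5 UMIs, which overlapped. Most of the *Csf2* in the macrophage-like cluster came from finer cluster 15, led by the lymphocyte genes *Ptprcap*, *Skap1* and *Klrk1*, with 6 and 8 UMIs.

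**Figure D3:**
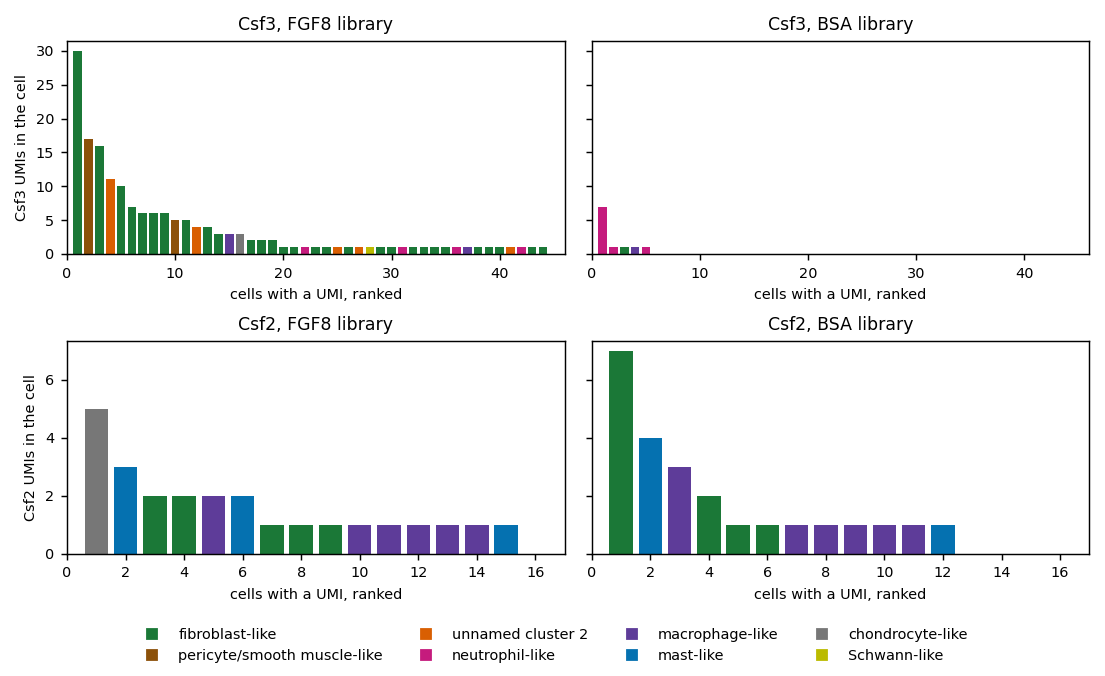
Every kept cell with a *Csf3* (top) or *Csf2* (bottom) UMI, ranked by its UMIs, in the FGF8 (left) and BSA (right) libraries. The vertical axes count UMIs of the gene in the cell, from 0, and colours give the cell type. *Csf3* was found in 44 FGF8 cells and 5 BSA cells, and *Csf2* in 15 and 12.

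Of the 7 members with at least 10 UMIs in fibroblast-like cells, 2 (*Csf3* and *Csf2rb*) had a log2 ratio above 1 and 1 (*Csf2*) below -1. Of all genes with that many UMIs there, 6.51% were above 1 and 5.11% below -1. In macrophage-like cells 0 of 6 members were above and 1 (*Csf2*) below, beside 8.23% and 3.39% of all genes, and in neutrophil-like cells 0 of 6 were above and 1 (*Csf3*) below, beside 21.5% and 5.38%. No replicated test stood behind these counts, which are of fold size alone. The *Csf2rb* count came from 57 FGF8 and 6 BSA UMIs, levels of 0.815 and 0.169 CPM. The *Csf2* count in macrophage-like cells came from 7 and 8 UMIs, with an interval from -2.71 to 0.64. The *Csf3* count in neutrophil-like cells came from 4 and 9 UMIs. With at least 30 UMIs required, 0 members were below -1 in any of these cell types.

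*Csf1r* (ENSMUSG00000024621, chr18:61229714-61266535, plus strand) encodes the receptor of CSF1 and IL-34. In macrophage-like cells 605 of 886 FGF8 cells carried 2525 UMIs and 320 of 467 BSA cells 1689, or 88.3% and 90.3% of all *Csf1r* UMIs. The level was 247 CPM (238–257) in the FGF8 and 292 CPM (279–307) in the BSA library, a log2 ratio of -0.24 (from -0.33 to -0.15), or 1.18-fold higher in the BSA library. Cells of either sex alone gave -0.23. A lower FGF8 level was not particular to *Csf1r* there. The 21 signalling genes of the pathway list given below had a median log2 ratio of -0.27 in macrophage-like cells, with 2 above 0. Over all genes in these cells the median was 0.06. Fibroblast-like cells had 1.96 and 2.22 CPM, with 0.504% and 0.492% of cells keeping a UMI after thinning, against 33.2% and 40.6% of macrophage-like cells.

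Splitting the macrophage-like cells by the complement genes *C1qa*, *C1qb* and *C1qc*, which many tissue macrophages express, gave uneven *Csf1r* differences. This split was chosen after the data had been seen, and the difference between its sides was not tested. Cells with a C1q UMI were also deeper, with medians of 12883 and 15029 UMIs against 8239 and 9560 without one. They were not thinned for the split, so its sides differ in depth too. In cells with a C1q UMI (387 FGF8 and 207 BSA cells), *Csf1r* was at 307 and 380 CPM. In cells without one (447 and 207) it was at 170 and 176 CPM, the lower level in both libraries. *Csf2ra* was more even, at 122 and 145 CPM with C1q and 152 and 159 CPM without, and *Csf2rb* was higher without C1q, at 71.4 and 62.6 CPM against 33.6 and 45.2 CPM. Cells of finer cluster 15 made up 134 and 81 of the cells without C1q.

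**Figure D4:**
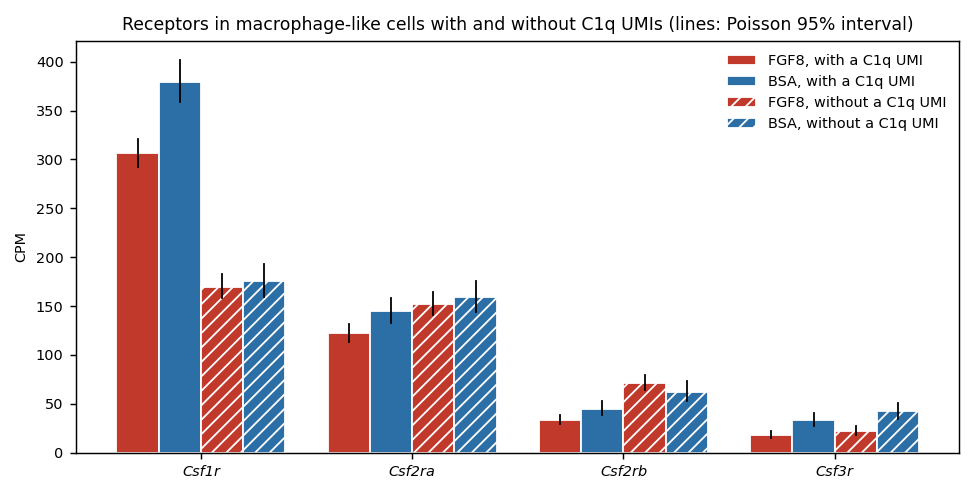
Receptor genes in macrophage-like cells with at least 2000 UMIs, split by whether the cell had a C1q UMI (solid bars) or not (hatched bars). Bars give CPM from 0 in the FGF8 (red) and BSA (blue) libraries and lines give Poisson 95% intervals. *Csf1r* is highest in the BSA cells with C1q (380 CPM) and lowest in FGF8 cells without it (170 CPM), and *Csf2rb* is higher in the cells without C1q.

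*Csf1r* was also present in neutrophil-like cells, at 67.4 CPM (55.5–81.0) in the FGF8 and 124 CPM (97.3–156) in the BSA library, a log2 ratio of -0.88 (from -1.32 to -0.44). After thinning it was -0.78 (from -1.45 to -0.10). By sex it was -0.43 in female-called (from -1.77 to 0.84) and -0.93 in male-called cells (from -1.81 to 0.06), and both intervals held 0. The 8 macrophage markers summed to 257 and 563 CPM in the same cells, the same direction, and their part in the result was not tested. The C1q genes gave 0.442 and 0.370 UMIs for each *Csf1r* UMI there, against 12.0 and 10.2 in macrophage-like cells.

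*Csf2ra* (ENSMUSG00000059326, chr19:61212395-61216892, minus strand) encodes the ligand-binding chain of the CSF2 receptor. It was at 135 CPM (128–142) and 150 CPM (141–161) in macrophage-like cells, a log2 ratio of -0.15 (from -0.28 to -0.03), and at 168 CPM and 172 CPM in neutrophil-like cells (log2 ratio -0.04, from -0.37 to 0.31). Taken by sex, the small macrophage-like difference lay within counting error, at 0.01 (from -0.20 to 0.22) for female-called and -0.04 (from -0.30 to 0.23) for male-called cells. Schwann-like cells came next with 16.3 and 17.9 CPM, above the 5.91 and 6.44 CPM of fibroblast-like cells in both libraries. Mast-like cells, high in the beta chain, had *Csf2ra* and *Csf2rb* UMIs together in 1 cell of each library.

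*Csf2rb* (ENSMUSG00000071713, chr15:78209952-78238047, plus strand) encodes the beta chain shared by the receptors of CSF2, IL-3 and IL-5. The level was highest in mast-like cells, 242 CPM (192–301) in the FGF8 and 231 CPM (183–287) in the BSA library, from 81 UMIs in each. Neutrophil-like cells had 96.6 and 85.1 CPM and macrophage-like cells 49.8 and 53.0 CPM, where the intervals of the libraries overlapped in both types. The macrophage-like ratio was -0.09 (from -0.29 to 0.12). *Csf2rb2* (chr15:78166707-78189921, minus strand), a close copy beside it, was at 149 and 123 CPM in mast-like cells and 11.9 and 15.2 CPM in macrophage-like cells, and reads that both copies match could be split between them, so the values of both are uncertain.

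The endothelial cells of finer cluster 14 differed between the libraries in *Csf2rb*. In the FGF8 library 69 of 142 cells held 199 UMIs and in the BSA library 24 of 121 held 54, at 92.3 CPM (79.9–106) and 30.2 CPM (22.7–39.4). The log2 ratio was 1.61 (1.17–2.07), and the levels did not overlap. The copy *Csf2rb2* was at 31.5 and 23.5 CPM in these cells, a log2 ratio of 0.43 whose interval held 0 (from -0.15 to 1.02). After thinning, 15.8% of FGF8 and 5.22% of BSA cells kept a UMI. The lymphatic markers of these cells were higher in the BSA and the neutrophil markers in the FGF8 library, as given for *Csf1*. Without cells that had a lymphatic marker UMI the ratio was 1.13 (0.53–1.78), and without cells that had a neutrophil marker UMI it was 1.26 (0.80–1.75). By sex it was 1.76 (1.07–2.48) for female-called and 0.69 (from -0.01 to 1.46) for male-called cells, the latter within counting error and with 14 BSA cells.

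*Csf3r* (ENSMUSG00000028859, chr4:125918262-125938236, plus strand) encodes the G-CSF receptor, and in neutrophil-like cells 472 of 537 FGF8 cells held 1896 UMIs and 146 of 157 BSA cells 775. These came to 1130.4 CPM in the FGF8 and 1318 CPM in the BSA library, a log2 ratio of -0.22 (from -0.34 to -0.10). After thinning, 86.8% and 87.1% of the cells kept a *Csf3r* UMI. Without integration of the libraries the ratio was -0.04, with an interval that held 0. There, 3 BSA cells with 16654 to 49274 UMIs joined the neutrophil-like cells, and 1 of 13121 UMIs left, so that the BSA total rose from 587820 to 674424 UMIs. With the entering cells of both libraries taken out again, the ratio was -0.25 (from -0.37 to -0.12).

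Macrophage-like cells had *Csf3r* at 20.3 CPM (17.6–23.2) in the FGF8 and 37.6 CPM (32.7–42.9) in the BSA library, a log2 ratio of -0.89 (from -1.17 to -0.61). The 9 neutrophil markers summed to 120 and 221 CPM in these cells, moving the same way. The 7 monocyte or dendritic cell markers, at 938 and 1519 CPM, also moved the same way, and their part in the result was not tested. *S100a8* and *S100a9* together gave 5.62 and 5.69 UMIs for each *Csf3r* UMI in macrophage-like cells, and 28.0 and 24.05 in neutrophil-like cells. After thinning the macrophage-like ratio was -0.29 (from -0.96 to 0.40), and in male-called cells it was -0.52 (from -1.14 to 0.14), so the difference was not clear of counting error there.

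In cluster 2 *Csf3r* was at 14.3 and 4.74 CPM (log2 ratio 1.60, from 0.87 to 2.39), beside neutrophil markers at 118 and 30.7 CPM. The ratio was 0.09 after thinning (from -3.03 to 3.67) and 1.19 in male-called cells (from -0.26 to 3.13). Fibroblast-like cells had 1.54 and 0.984 CPM (log2 ratio 0.65, from 0.09 to 1.24), beside neutrophil markers at 31.9 and 15.2 CPM, and the ratio was -0.82 in male-called cells (from -1.63 to 0.07). The neutrophil markers thus moved with *Csf3r* in all 3 cell types, and their part in these results was not tested.

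**Figure D5:**
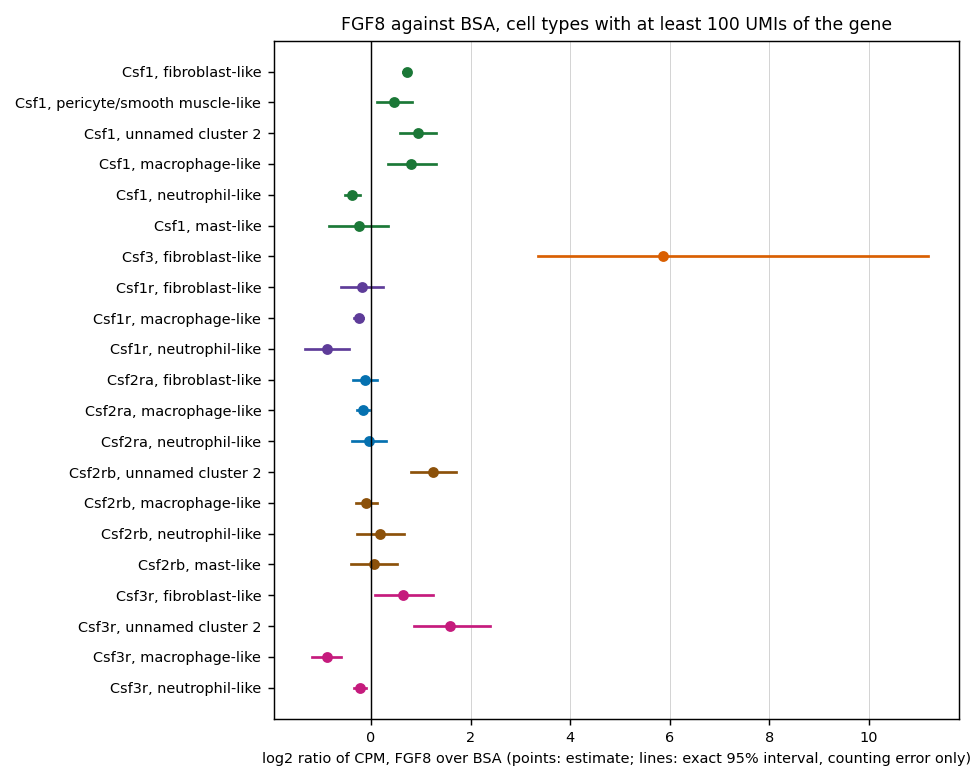
Log2 ratio of CPM, FGF8 over BSA, for each gene and cell type with at least 100 UMIs. Points are estimates, lines are exact 95% intervals for counting error, and the vertical line is at 0. *Csf3* in fibroblast-like cells stands far to the right (5.87), and *Csf1* lies right of 0 in fibroblast-like cells (0.72) and left of 0 in neutrophil-like cells (-0.37).

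Pairs of members were counted in the same cell after thinning to 2000 UMIs. *Csf1r* and *Csf2ra* were found together in 8.63% of 834 FGF8 and 12.6% of 414 BSA macrophage-like cells, beside products of the single shares of 7.89% and 10.4%. *Csf1* and *Csf3r* were found together in 53.3% of 403 FGF8 and 50.3% of 147 BSA neutrophil-like cells, beside products of 53.2% and 50.3%. The shares lay close to the products in neutrophil-like cells and a little above them in macrophage-like cells, at a depth shared by all cells.

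Other ligands of these receptors were measured with a list of 77 pathway genes. *Il34*, the second ligand of CSF1R, was highest in pericyte or smooth muscle-like cells, at 165 and 224 CPM, which held 48.0% of its FGF8 UMIs and 61.6% of its BSA UMIs. *Il3* had 0 UMIs in both libraries, and *Il5* had 4 and 19, of which macrophage-like cells held 3 and 18. *Kitl* encodes the ligand of the mast cell receptor KIT, which is not among the members. It was highest in pericyte or smooth muscle-like cells, at 210 CPM in both libraries, and at 93.8 and 99.1 CPM in fibroblast-like cells.

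In fibroblast-like cells 70 pathway genes had at least 10 UMIs, and 7 had a log2 ratio above 1 and 1 below -1, with a median of 0.11 beside -0.07 over all genes, of which 6.51% were above 1 and 5.11% below -1. Inducers and their receptors gave 4 of 21 above 1, with a median of 0.49. These were *Nfkb1* (323 and 139 CPM, log2 ratio 1.21), the NF-kappaB inhibitor gene *Nfkbia* (657 and 280 CPM, 1.23), *Nfkbiz*, which encodes a nuclear cofactor of NF-kappaB (91.5 and 45.4 CPM, 1.01), and the IL-1 receptor antagonist *Il1rn* (1.13 and 0.281 CPM, 2.01). Of the other genes above 1, *Cebpd*, a C/EBP transcription factor, was at 134 and 59.2 CPM (1.18), and *Csf2rb2* and *Flt3* had under 20 UMIs in each library. *Irf4* was below -1, with 21 and 31 UMIs (-1.54). None of the 21 signalling genes and none of the 8 feedback genes passed in either direction, and *Socs3*, a feedback inhibitor of CSF3R signalling, was at 121 and 82.9 CPM (0.55).

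In macrophage-like cells 5 of 72 pathway genes were above 1 and 2 below -1, with a median of -0.17 beside 0.06 over all genes, of which 8.23% were above 1 and 3.39% below -1. *Il1r1* (24.3 and 6.92 CPM, log2 ratio 1.81), *Kitl* (23.9 and 8.31 CPM, 1.52), *Il1a* (7.83 and 1.90 CPM, 2.04), *Il34* (20 and 3 UMIs) and *Il6* (23 UMIs and 1 UMI) were above. *Il17a*, a cytokine of lymphocytes, was at 1.18 and 16.3 CPM (-3.79) and *Il5* had 3 and 18 UMIs, and these were below. The T or NK markers summed to 226 and 264 CPM in these cells. *Il1r1* and *Kitl* are also found in fibroblast-like cells, at 129 and 72.1 CPM and at 93.8 and 99.1 CPM, and in macrophage-like cells the fibroblast markers (1140 and 846 CPM), the pericyte or smooth muscle markers (100.5 and 36.5 CPM) and the chondrocyte markers (142 and 49.0 CPM) were higher in the FGF8 library too. Their part in the result was not tested.

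In neutrophil-like cells 5 of 62 were above 1 and 3 below -1, with a median of -0.20 beside 0.22 over all genes, of which 21.5% were above 1 and 5.38% below -1. The share of pathway genes above 1 was thus under that of all genes. *Tnf* was at 306 and 759 CPM (-1.31), *Nfkb1* at 259 and 524 CPM (-1.02) and the transcription factor *Maf* at 28.6 and 80.0 CPM (-1.48). *Kitl*, *Il1r1*, *Il6*, *Socs2* and *Spred1* were above 1, from 12 to 72 FGF8 UMIs and 1 to 10 BSA UMIs. The fibroblast markers in these cells went the same way (2832 and 825 CPM), and their part in the result was not tested. *Il1b*, the inflammatory cytokine, was the pathway gene with the highest level, at 7547 and 8283 CPM.

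For the members with at least 500 UMIs, the genes with the most similar pattern were looked for over the 9 named finer clusters with at least 30 cells in each library, 18 points that share 2 libraries and their depth. No fibroblast cluster is among them. *Csf3r* was most like *Il1b* (r = 0.987), followed by *Clec7a*, *Trim30b*, *Cd300lf* and *Nlrp3*. *Csf1r* was most like *Epsti1* (0.977), *Lyz2*, *Clec4a3*, *Cybb* and *Cd68*, and *Csf2rb* was most like *Nrros* (0.975), *Arhgap25*, *Gmfg*, *Inpp5d* and *Pik3r6*. *Csf1* was most like the stress gene *Ddit3* (0.933), and *Csf2ra* most like *E230029C05Rik* (0.952). Over the 18 finer clusters of that size, named or not, a choice made after the data had been seen, *Csf2rb* was most like its copy *Csf2rb2* (0.965) and *Csf3r* most like *Cebpe* (0.933). *Csf1*, with its stromal clusters then included, was most like *Selenon* (0.839), *Svil* and *Sfxn5*, and *Ddit3* was not among the 5 genes most like it.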

How the data were processed

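Single-cell 3′ RNA sequencing was measured in 1 FGF8 and 1 BSA library of pooled digit cells. The deposited values are raw UMI counts per gene and barcode, which the authors made with Cell Ranger 9.0.0 on GRCm39 for barcodes called as cells, without normalization and before their filters. Kept cells had over 200 and under 7500 genes and less than 15% mitochondrial UMIs. They were clustered by the steps of the study's methods (SCTransform, CCA integration, 30 components, resolution 0.05, also 0.5) in R 4.3.3, using Seurat 5.3.0 with sctransform 0.4.2. Doublets were not removed, and no caller was run. Clusters were named by the marker list with the highest mean log2 fold over the other cells. At least 3 of its markers had to be found in at least 10% of cells, with a mean above 1 over those found. At least 1 had to be among the 10 leading genes, and no other list could hold more of these genes. These rules were set after the data had been seen.

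UMI counts were summed per library and cluster in Python 3.11.15 (numpy 2.4.6, scipy 1.17.1, pandas 2.3.3; plots with matplotlib 3.10.9) and scaled to CPM. Ratios were given for at least 10 UMIs over both libraries, and where a type had no UMI, a floor of 3 counts was used. The computation was tested on simulated data with counts drawn independently for each gene and library, which does not cover UMIs gathered in few cells. Positions of genes come from the GENCODE vM39 annotation of GRCm39, and promoter windows from a RefSeq table of GRCm38.p6.

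The members, lists and motifs were chosen with earlier results of these data known, and no list is independent evidence. Genes named are the members, pathway genes past 2-fold or of the highest level, the genes most like a member, and *Csf2rb2*; *Socs3* and the genes set beside *Csf3* were chosen after their values were seen. Alternatives were other cell filters, no integration, another resolution, equal weight of cells, thinning, each sex alone, leaving out the cell with most UMIs, totals without the 1% of genes with most UMIs and, added after the data had been seen, leaving out finer cluster 15, or in finer cluster 14 the cells with a lymphatic or neutrophil marker UMI, and repeating finer clusters 0 and 14 by sex and thinned. With 1 library per group no test across samples was possible.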

Additional observations from a re-analysis of the deposited data

Results flagged for a closer look

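Some members had ratios on opposite sides of 0 in different cell types, each with an interval clear of 0 before any alternative. *Csf1* had a log2 ratio of 0.718 in fibroblast-like, 0.812 in macrophage-like, 0.945 in cluster 2 and 0.472 in pericyte or smooth muscle-like cells, and of -0.372 in neutrophil-like cells. The pericyte or smooth muscle-like value was 0.152 with the stricter cell filter, where its interval held 0. *Csf3r* had 0.651 in fibroblast-like cells and 1.597 in cluster 2, and -0.890 in macrophage-like and -0.222 in neutrophil-like cells. Of these, the fibroblast-like value was -0.820 in male-called cells, and the values after thinning were 0.091 in cluster 2, -0.292 in macrophage-like and -0.109 in neutrophil-like cells, each with an interval that held 0. These differences between cell types were not tested, as each group was 1 library.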

How the results depend on the processing

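Every ratio of a member in the cell type with most of its UMIs was recomputed under up to 11 alternatives, and 55 of 67 values stayed within the 95% interval of the reported one. Values of *Csf3* with 0 BSA UMIs are bounds and were counted by the bound, which does not show where the ratio lies. *Csf1* in fibroblast-like cells (0.718) was 0.597 with the stricter cell filter, 0.795 for female-called and 0.585 for male-called cells. *Csf3* there was at least 3.311 with the stricter filter, at least 0.911 after thinning and at least 2.906 in female-called cells, where the BSA library held 0 UMIs. *Csf1r* in macrophage-like cells was -0.350 after thinning. *Csf2ra* there changed sign to 0.012 in female-called cells, and *Csf2rb* was 0.313 in female-called cells, -0.307 in male-called cells and -0.430 with cells weighted equally. *Csf3r* in neutrophil-like cells was -0.038 without integration. In other cell types, *Csf3r* in fibroblast-like cells was -0.820 in male-called cells, and *Csf1* in cluster 2 was -0.387 after thinning and -0.199 in male-called cells. The *Csf3r* ratio without integration was -0.247 once the cells that entered were left out, and the causes of the other changes were not tested. With a minimum of 30 UMIs, 3 pathway genes in place of 5 were above 2-fold in macrophage-like cells and 3 in place of 5 in neutrophil-like cells. At a resolution of 0.5 no cluster was named fibroblast, so that alternative gave no value there. No paired analysis was possible because each group had 1 library. With so few UMIs of *Csf2* and *Csf3*, depth limits any ratio of them.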
